A study of Mus musculus with 6 samples.

Results

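Lysophosphatidic acid (LPA) and sphingosine 1-phosphate (S1P) are signalling lipids, and 10 genes that make, degrade or sense them were followed in whole bone marrow of mice given NOX-A12. The genes were Plpp1, Plpp3, Enpp2, Lpar1, Lpar6, S1pr1, S1pr4, Sphk1, Sphk2 and Sgpl1. Every probe set whose array annotation named exactly 1 of these symbols was taken, which gave 17 probe sets for 9 genes, of 18193 genes measured in all. Enpp2 was not analysed here. The set was drawn up with the NOX-A12 against untreated difference known, Plpp3 being among the genes with the lowest unadjusted p, so the members' differences are given as a description without a test.

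Marrow came from SCID/Bg mice, an immunodeficient strain known to lack mature T and B lymphocytes and to have weak natural killer function. The groups were 3 untreated mice and 3 mice given NOX-A12, an L-RNA oligonucleotide that captures the chemokine CXCL12, and all 6 shared the SCID/Bg strain. RNA of every animal went onto its own Affymetrix array (Mouse Genome 430 2.0). The labels used here state no age, dose or schedule. Because RNA came from unfractionated marrow, fewer cells of a type and less RNA per cell cannot be told apart.

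LPA is released outside the cell from lysophospholipids, and S1P is made inside the cell from sphingosine by sphingosine kinases and exported. Lipid phosphate phosphatases of the cell surface remove the phosphate from both lipids, and S1P lyase cleaves S1P irreversibly inside the cell, so that S1P is kept low in tissues and high in blood and lymph. Leukocytes carrying S1P receptors follow that difference out of lymphoid organs and marrow, a route that acts beside the retention of cells by CXCL12.

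Of the 9 measured genes, the surface phosphatase gene Plpp3 stood lower in treated marrow at both of its probe sets, at 60.9% and 66.3% of the untreated mean intensity. The related phosphatase gene Plpp1 stood at 88.1% at its lead probe set, the one with the highest mean over the 6 arrays. For the kinases, the lyase and the receptors, the lead probe sets of treated and untreated mice overlapped. None of the 17 probe sets passed limma's test, with Benjamini-Hochberg adjustment over all 45037 probe sets at 0.05. That test called 0 probe sets on the whole array (0%), where the smallest limma adjusted p was 0.790. At an unadjusted limma p under 0.05 there were 2 member probe sets, those of Plpp3, and 2240 of all probe sets (4.97%), the latter count being 3555 without untreated mouse 1. Since the set was chosen on this contrast, nothing is read from the count.

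Promoter sequence is shown for the genes at the ends of the range of lead probe set changes, Plpp3 with the lowest and S1pr4 with the highest. RefSeq promoters of build GRCm38.p6 were matched for 7 of the 10 genes, in 14 windows. Plpp1, Enpp2 and S1pr1 were not matched. Each sequence below is the 250 bases before the annotated start, 5′ to 3′ along the gene. Capitals mark, on either strand, the letters TATAA of a TATA box, the letters GGGCGG of a GC box, and CACCC, the box that Krüppel-like factors bind. The marked motifs do not overlap each other in these windows. Plpp3 lies on the plus strand at chr4:105157097-105157346 and S1pr4 on the minus strand at chr10:81500138-81500387.
Plpp3: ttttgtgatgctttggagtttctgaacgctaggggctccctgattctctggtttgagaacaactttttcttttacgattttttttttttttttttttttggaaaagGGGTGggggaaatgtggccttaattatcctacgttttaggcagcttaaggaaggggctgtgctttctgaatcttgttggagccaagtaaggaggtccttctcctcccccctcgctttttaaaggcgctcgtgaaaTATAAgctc
S1pr4: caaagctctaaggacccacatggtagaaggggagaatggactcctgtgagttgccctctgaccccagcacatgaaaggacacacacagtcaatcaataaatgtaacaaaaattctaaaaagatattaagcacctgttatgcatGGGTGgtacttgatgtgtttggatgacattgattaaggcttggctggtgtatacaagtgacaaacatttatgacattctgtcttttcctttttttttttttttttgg
The Plpp3 window held TATAA starting at position -9 and CACCC at -144, counted back from the start, and no GGGCGG. The S1pr4 window held CACCC at -107 and neither of the others. TATAA was in 3 of the 14 member windows and in 22.8% of all 32851 promoter windows of that length. GGGCGG was in 5 of 14 and 32.7% of all, and CACCC in 11 of 14 and 52.0% of all. Some windows of Lpar1 and of Sphk1 overlap each other, and these letters only describe the sequence.

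Degradation of the lipids outside the cell was examined first. Plpp3 encodes a phosphatase that removes the phosphate from extracellular LPA and S1P. At its lead probe set (1429514_at) the untreated mice had intensities of 647, 664 and 819, and the treated mice 408, 434 and 453. All 3 treated mice lay below all 3 untreated mice, and the gap between the groups was wider than the whole range of the treated group. The untreated mean was 710 ± 94.7 (SD, n = 3), and the treated mean 432 ± 22.5 (SD, n = 3). Changes are given as log2(intensity + 16), a scale on which those of dim probe sets come out too small, and here the change (NOX-A12 minus untreated) was -0.69 with a standard error (SE) of 0.12.

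The other Plpp3 probe set (1448908_at) was dimmer. It read 112, 117 and 121 in untreated mice and 66.5, 81.8 and 83.8 in treated mice, a log2 change of -0.51 ± 0.11 (SE). The groups again did not overlap, and treated mouse 1 was the lowest of the 6 at both probe sets. Untreated mouse 3 was the highest at both, far above the other untreated mice at the lead probe set and level with them at the other. Without that mouse the lead probe set gave -0.58 ± 0.09 (SE). Among the 11004 genes whose lead probe set was above the median of all probe sets, 21 had a log2 change as low as that of Plpp3 or lower, Plpp3 included, or 0.191%. As Plpp3 was among the genes with the lowest unadjusted p when the set was drawn up, nothing is read from this share.

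Plpp1 encodes a phosphatase of the same family with the same substrates. At its lead probe set (1422619_at) the untreated mice read 810, 736 and 854 and the treated mice 668, 722 and 724, and the log2 change was -0.18 ± 0.10 (SE). The groups did not overlap, but the lowest untreated and the highest treated mouse were close. A second bright probe set (1422620_s_at) gave -0.12 ± 0.10 (SE), with overlapping groups. The third (1425449_at), with a mean of 9.04 in untreated and 10.8 in treated marrow, was near background and gave 0.09 ± 0.11 (SE). Averaged over its 3 probe sets, the log2 change of Plpp1 was -0.07.

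**Figure D1:**
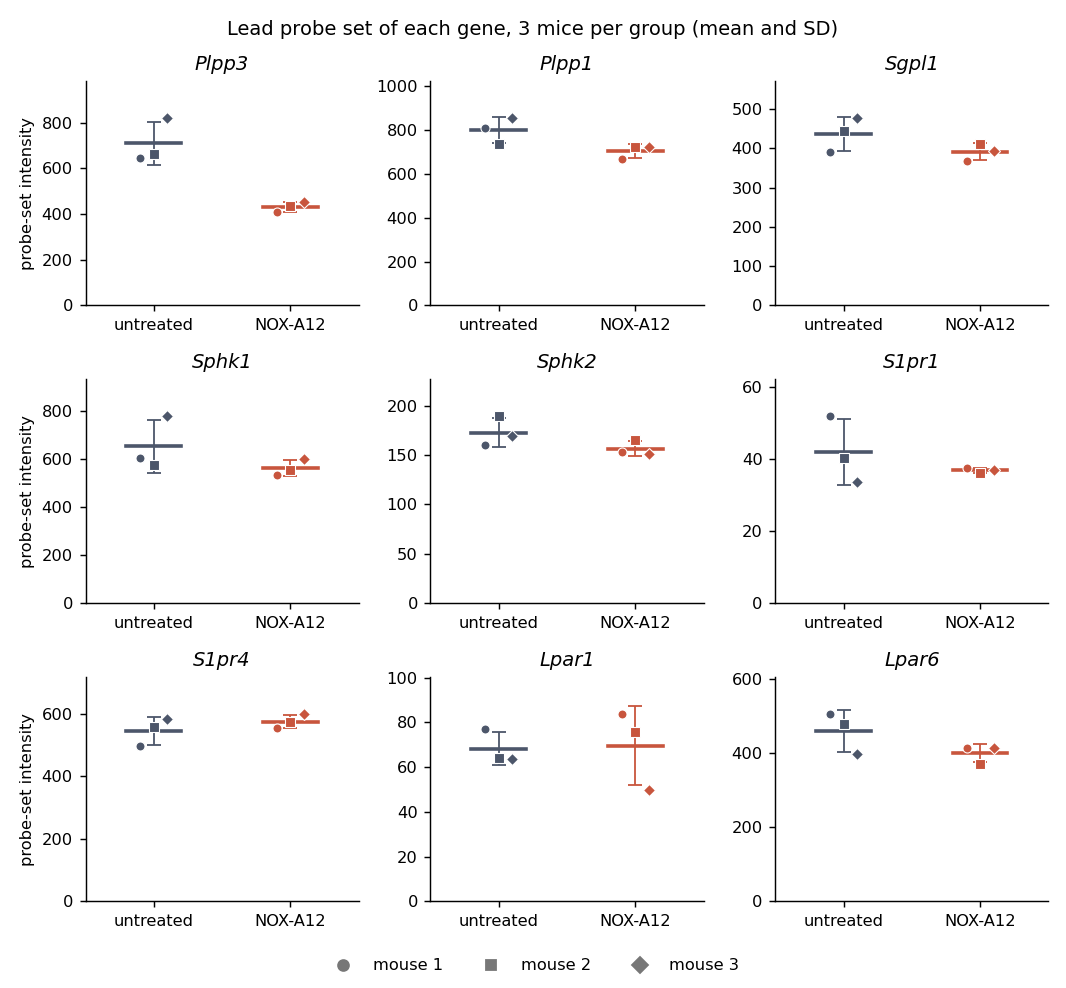
Intensity of the lead probe set of each of the 9 measured genes in every mouse (vertical axes from 0, probe-set intensity), with thick bars for the mean of 3 mice and thin bars for the SD. Plpp3 shows untreated mice from 647 to 819 and treated mice from 408 to 453, while in Sgpl1, Sphk1, Sphk2, S1pr1, S1pr4, Lpar1 and Lpar6 the groups overlap.

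Enzymes that make and break S1P inside the cell were lower on average by amounts close to their errors. Sphk1 and Sphk2 encode the kinases that phosphorylate sphingosine to S1P. The lead probe set of Sphk1 (1451596_a_at) read 604, 577 and 778 in untreated and 535, 554 and 600 in treated mice, a log2 change of -0.20 ± 0.13 (SE). Untreated mouse 3 alone was clearly above the rest, and without it the change was -0.07. The dim second probe set of Sphk1 (1420566_at) gave 0.05 ± 0.11 (SE). Sphk2 read 160, 189 and 169 in untreated and 153, 165 and 151 in treated mice at 1417431_a_at, a change of -0.13 ± 0.10 (SE), and -0.16 ± 0.14 (SE) at its dimmer probe set (1426230_at). The groups overlapped for both kinases, and without untreated mouse 2 the lead change of Sphk2 was -0.07.

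Sgpl1 encodes S1P lyase, which ends the pathway by cleaving S1P. Its lead probe set (1415892_at) read 390, 443 and 476 in untreated and 368, 411 and 394 in treated mice, a log2 change of -0.15 ± 0.11 (SE). Untreated mouse 1 fell within the treated range. The second probe set (1415893_at), with means of 14.1 and 9.51, gave -0.23 ± 0.15 (SE). Without untreated mouse 3 the lead change was -0.09.

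The S1P receptor genes S1pr1 and S1pr4 had overlapping groups. S1pr1 encodes the receptor through which lymphocytes leave lymphoid organs, and it is also a receptor of endothelium. Its probe set (1423571_at) was dim, below the median of all probe sets, and read 51.8, 40.3 and 33.6 in untreated and 37.6, 36.2 and 37.0 in treated mice. The 3 treated mice lay within the untreated range, and the log2 change was -0.12 ± 0.13 (SE). It was 0.00 without untreated mouse 1 and -0.22 without untreated mouse 3, so each of these mice moved it by about its error, and without the latter the groups no longer overlapped. S1pr4, a receptor mainly of blood-forming and immune cells, read 497, 556 and 584 in untreated and 554, 573 and 598 in treated mice (1451024_at). Its log2 change of 0.08 ± 0.10 (SE) was smaller than its error, and ranged from 0.01 without untreated mouse 1 to 0.13 without untreated mouse 3.

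The LPA receptor genes Lpar6 and Lpar1 differed little between the groups at their lead probe sets. Lpar6 encodes an LPA receptor of the purinergic-receptor-like branch. Its only probe set (1428615_at) read 505, 480 and 397 in untreated and 414, 372 and 413 in treated mice, a log2 change of -0.19 ± 0.12 (SE). Untreated mouse 3 was the mouse that overlapped the treated group, and without it the change was -0.29. Lpar1, a widely expressed LPA receptor gene, read 77.0, 64.3 and 63.7 in untreated and 83.6, 75.5 and 49.7 in treated mice at its lead probe set (1448606_at). Treated mice held both the highest and the lowest value there, and the log2 change was 0.00 ± 0.17 (SE), ranging from -0.12 without treated mouse 1 to 0.18 without treated mouse 3. A second Lpar1 probe set (1426110_a_at) gave 0.22 ± 0.11 (SE), with treated mice at 45.4 to 53.8 and untreated mice at 34.4 to 45.0. The third (1417143_at) was at the bottom of the scale, with a mean of 1.15 in untreated and 1.85 in treated marrow, and gave 0.05 ± 0.10 (SE).

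**Figure D2:**
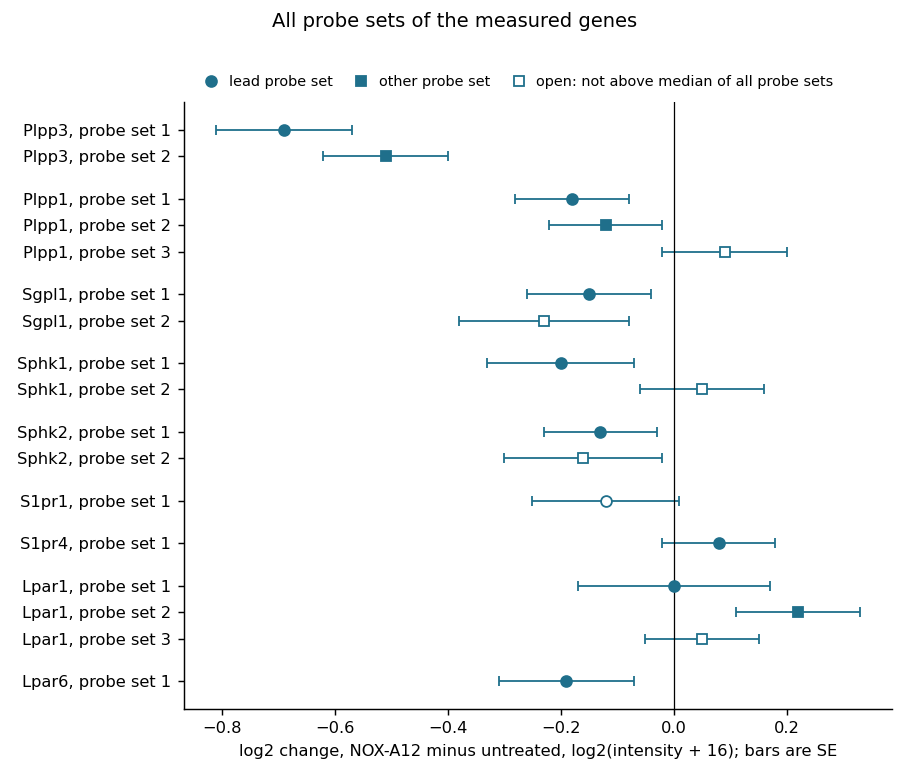
Log2 change (horizontal axis, NOX-A12 minus untreated, log2(intensity + 16)) with its SE for all 17 probe sets, circles for the lead probe set of a gene and squares for the others, open where the mean was not above the median of all probe sets. The Plpp3 probe sets at -0.69 and -0.51 lie apart from the rest, which run from -0.23 to 0.22.

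Counted by lead probe sets, 7 of the 9 genes had a lower mean under NOX-A12, against 52.8% of all 18193 genes, and their median log2 change was -0.15 against -0.01 over all genes. The groups did not overlap for 2 genes, Plpp1 and Plpp3, both lower, against 6.68% of all genes lower and 3.92% higher in that way, or 10.6% in either direction. Without untreated mouse 3 there were 4 such genes, all lower, with Lpar6 and S1pr1 added. Of all genes, 11.3% were then apart and lower and 20.1% apart in either direction. That setting was chosen after the data were seen. As the set was chosen on this contrast, these counts describe it and support nothing further.

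Array quality and marrow composition were then set beside these values. Array medians lay between 44.8 and 45.6, and precision is limited by having 3 arrays a group. The array of untreated mouse 3 stood apart, with 851 probe sets, or 1.89% of all, more than 2-fold away from the other arrays' median (44 to 67 for any other array). Of the 17 member probe sets 0 were among them, which at that share says little about the members. All 10 measured neutrophil markers and 7 erythroid markers were above the median of all probe sets. Of 12 T and natural killer markers, 9 were above that median and 3 were not. Cd4 was at a mean intensity of 3.58, while Cd3d, of the T-cell receptor complex, read 1319 in untreated and 1813 in treated marrow, a log2 change of 0.46 ± 0.14 (SE). Cd3g gave 0.50 ± 0.24 (SE), with overlapping groups, and Cd3e was near background at -0.09 ± 0.23 (SE). In the list as a whole 7 markers were lower and 5 higher. Klrd1 gave -0.52 ± 0.09 and Eomes -0.37 ± 0.11 (SE), each lower with groups apart.

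Stromal reticular and endothelial markers had lower means in treated mice, as Plpp3 did, though none passed limma over all probe sets. All 14 stromal reticular markers were lower under NOX-A12, with changes from -0.65 to -0.02 and a median of -0.45, and the groups did not overlap for 8 of them, against 6.68% of all genes lower in that way. Vcam1, an adhesion molecule gene, was the member at -0.02. Lepr, which encodes the leptin receptor that marks marrow reticular cells, gave -0.65 ± 0.19 (SE), and Pdgfra, a growth factor receptor gene of mesenchymal cells, gave -0.58 ± 0.09 (SE). The summed intensity of the list was 11039 to 13357 in untreated and 8829 to 10101 in treated mice, and none of its members was near 0, the dimmest being Foxc1 at a mean of 47.1.

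All 14 endothelial markers were lower as well, from -0.62 to -0.01 with a median of -0.37, and the groups did not overlap for 7, against the same 6.68%. Robo4, a guidance receptor gene of endothelium, gave -0.62 ± 0.12 (SE), while Pecam1, Flt1 and Emcn gave -0.01 ± 0.20, -0.03 ± 0.15 and -0.03 ± 0.09 (SE). The summed intensity was 1516 to 1893 in untreated and 1247 to 1325 in treated mice, and the dimmest marker was Tie1 at 18.1. The adipocyte list (6 markers, median -0.19), the osteoblast list (5, -0.28), the B lineage list (9, -0.29), the dendritic list (7, -0.20) and the monocyte and macrophage list (11, -0.15) were also lower by their medians. In that order, 1, 1, 3, 4 and 3 of their markers were lower with groups that did not overlap, against 6.68% of all genes. The dendritic list also had 1 marker apart and higher, against 3.92% of all genes. The medians of the T and natural killer list (-0.08), neutrophil list (0.07), erythroid list (0.04), megakaryocyte list (-0.11) and skeletal muscle list (-0.03) were nearer to 0. Groups were apart for 2 lower and 1 higher T and natural killer markers, 1 lower neutrophil marker and 1 higher skeletal muscle marker. They were apart for 0 erythroid and 0 megakaryocyte markers. No marker of these lists passed limma over all probe sets either. Without untreated mouse 3 the stromal median was -0.38 and the endothelial -0.36, while the neutrophil and erythroid medians changed sign to -0.02 and -0.03, the skeletal muscle median to 0.03, and the megakaryocyte median became -0.01. The osteoblast median was then -0.19 and the T and natural killer median -0.05. The B lineage median was then -0.38, as low as the stromal one, and the dendritic median -0.24. The adipocyte median was -0.16 and the monocyte and macrophage median -0.12. The part of these cell types in the Plpp3 difference was not tested.

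**Figure D3:**
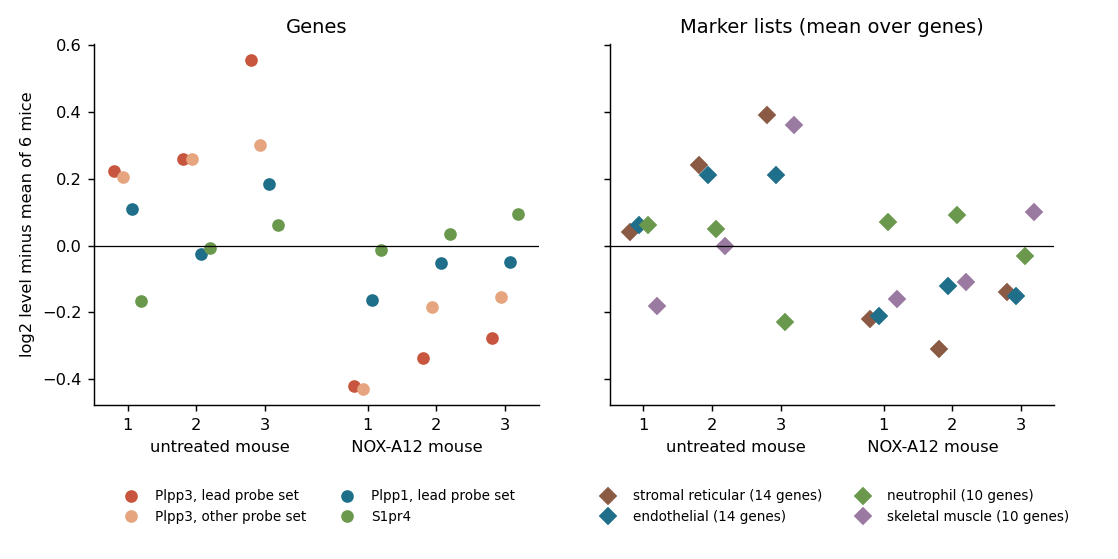
Log2 level in each mouse minus the mean of the 6 mice (vertical axis), for Plpp3, Plpp1 and S1pr4 (left) and for the mean over 4 marker lists (right). Plpp3, the stromal reticular list and the endothelial list are above 0 in the 3 untreated mice and below 0 in the 3 treated mice, while the neutrophil and skeletal muscle lists overlap between the groups. Of the 10 skeletal muscle markers only 2 were above the median of all probe sets, and 4 had a mean intensity under 16. The adipocyte, monocyte and macrophage, and dendritic lists, not drawn, were also lower in all treated mice by this mean. The adipocyte groups nearly touched, with untreated mouse 1 and treated mouse 3 both at -0.03 after rounding, and 2 of its 6 markers had a mean intensity under 16. In the monocyte and macrophage list, untreated mouse 3 was at 0.01 and treated mouse 1 at -0.02.

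The 3 genes whose profile over the 6 arrays was most like that of each member above the median were found among 10996 other genes above the median of all probe sets, by the root mean square (RMS) difference of log2 levels after centring. For Plpp3 they were Emp2 (RMS 0.064), Robo4 (0.085) and Cdh2 (0.087), with log2 changes of -0.63, -0.62 and -0.67. The RMS of the Plpp3 profile itself was 0.36, so these profiles differed from it by much less than it varied. The nearest to Plpp1 were Orc6 (0.020), Zscan21 (0.026) and Agfg2 (0.026), against its own RMS of 0.11. Lpar6 was nearest to Rai1 (0.028), Nudt22 (0.042) and Tbx21 (0.049). S1pr4 was nearest to Tnrc6c, Zfp712 and Sap30l, at 0.018 to 0.022 against its own 0.083. Lpar1 was nearest to Gtf2h3, Trmt61a and Farp1, at 0.029 to 0.042. Sphk1 was nearest to 4930413G21Rik, 2310011J03Rik and Mecom, each at 0.028. The nearest to Sphk2 were Tmem106a, Sema4d and Axin1, at 0.015 to 0.029, and to Sgpl1 Arrdc3, Kat5 and Exoc7, at 0.018 to 0.027. S1pr1, below the median, was not compared. The flatter a profile, the more genes come close to it, and all profiles share the same 6 arrays.

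Other genes of the pathways were taken from a list of 49, of which 46 were measured, with Lpar5, Cers1 and Grk2 not analysed here. By their lead probe sets 27 were lower and 19 higher, with a median log2 change of -0.06, and 0 passed limma over all probe sets. At an unadjusted limma p under 0.05, 4 were lower (Liph, Lpar3, S1pr3 and Asah2) and 0 higher, against 3.53% lower and 1.78% higher of all genes. Liph falls outside the rule for named genes and is named after its value was seen. Liph, which encodes a phospholipase that makes LPA, and Lpar3 were dim, at mean intensities of 25.5 and 9.94 in untreated marrow. The groups did not overlap for 7 lower genes and 1 higher gene of the 46, against 6.68% lower and 3.92% higher of all genes.

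The 3 remaining S1P receptor genes had lower means at their lead probe sets, against 52.8% of all genes, while the probe sets of S1pr2 went both ways. S1pr3, whose product is found on vascular and stromal cells, read 162, 222 and 225 in untreated and 152, 154 and 145 in treated mice, a log2 change of -0.38 ± 0.14 (SE). The groups did not overlap, although untreated mouse 1 was close to the treated mice, and the dimmer probe sets of S1pr3 gave -0.07 and -0.02. S1pr2 gave -0.11 ± 0.15 (SE) at its lead probe set and 0.31 at the other, where the groups were apart with treated mice higher. S1pr5, a receptor of natural killer cells, was dim and gave -0.19 ± 0.17 (SE). Of the LPA receptor genes, Lpar2, Lpar3 and Lpar4 gave 0.05 ± 0.08, -0.29 ± 0.11 and -0.14 ± 0.09 (SE), all dim, with mean intensities of 22.4, 9.94 and 14.3 in untreated marrow. Their groups did not overlap, with Lpar2 higher (3.92% of all genes) and Lpar3 and Lpar4 lower (6.68% of all genes).

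At their lead probe sets, carriers and regulators of S1P signalling overlapped between the groups except for Foxo1. Spns2, which encodes the S1P exporter of endothelium, gave -0.16 ± 0.11 (SE), and Mfsd2b, that of erythroid cells and platelets, gave -0.13 ± 0.10 (SE). Apom, whose product carries S1P in plasma, was near background at -0.01 ± 0.12 (SE). Klf2, a transcription factor gene that drives S1pr1, gave 0.09 ± 0.13 (SE), and Cd69, whose product takes S1PR1 off the cell surface, gave 0.12 ± 0.14 (SE). Foxo1, another transcription factor gene upstream of S1pr1, read 425, 359 and 353 in untreated and 340, 337 and 324 in treated mice, a change of -0.17 ± 0.10 (SE). Its dimmer probe sets gave -0.40 ± 0.11, with groups apart, and -0.12 ± 0.12 and -0.11 ± 0.23 (SE), with overlapping groups. Among the other enzymes, Asah2, encoding neutral ceramidase, gave -0.25 ± 0.10 (SE), and the phosphatase gene Plpp5 gave -0.13 ± 0.09 (SE), each with groups that did not overlap. The dimmer probe sets of Asah2 went the other way, at 0.16 ± 0.13 and 0.09 ± 0.09 (SE), the latter with treated mice higher and groups apart. By lead probe sets, the G-protein and exchange-factor genes that carry the receptor signal, 7 in number, ran from -0.12 to 0.19 with overlapping groups. Their other probe sets varied more, among them 1453470_a_at of Gna13 at -0.38 ± 0.13 (SE), with groups apart.

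**Figure D4:**
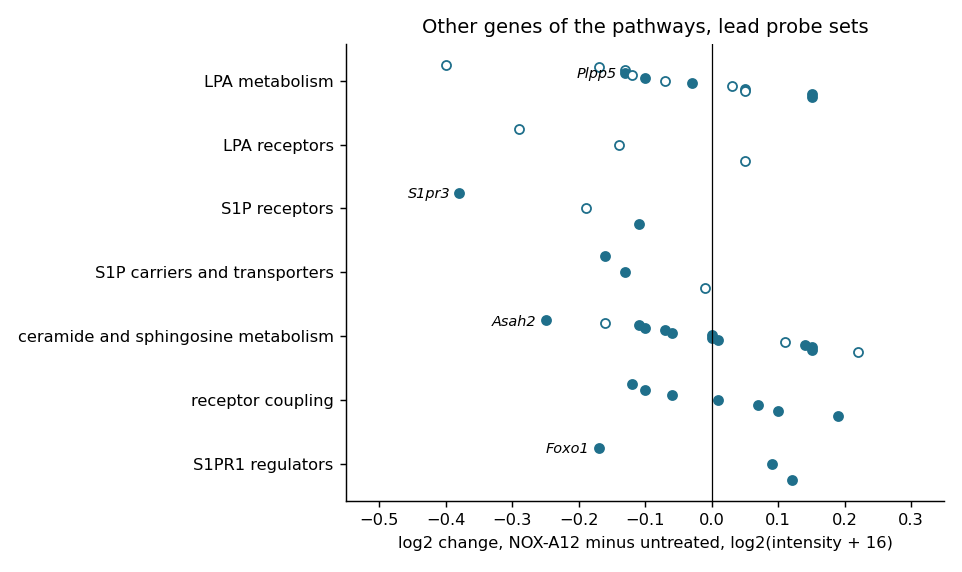
Log2 change (horizontal axis, NOX-A12 minus untreated, log2(intensity + 16)) of the lead probe sets of the 46 other pathway genes, by list, open where the mean was not above the median of all probe sets. Gene names mark filled points whose groups did not overlap, of which S1pr3 at -0.38 is the lowest.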

How the data were processed

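The authors' deposited values were probe-set intensities on a linear scale (0.66 to 16790), already summarised and scaled; the method is not given in the sources used here. On the log2 scale the arrays' medians spanned 0.0193, so no normalization was added. Groups came from the sample titles. Of 45037 probe sets, 34945 had 1 symbol in the platform annotation, 932 several and 9160 none listed. RefSeq (GRCm38.p6) gave promoters and updated 0 symbols.

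Values were log2(intensity + 16), and the moderated two-sided test of limma 3.58.1 (R 4.3.3, lmFit then eBayes, no covariate) had 7.24 degrees of freedom. The scripts were tested on simulated data. Members, pathway list, marker lists and the rule for named genes were chosen with earlier results of these data known. That rule named all members, the other receptors, carriers and S1pr1 regulators, other pathway genes above the median with groups apart, and the 3 genes nearest to each member above the median. The titles number separate mice, so the SDs measure the spread between animals. The SEs are limma's moderated ones, in which the spread of each probe set is drawn towards that of all probe sets. Same-numbered mice in the groups are different animals (correlations of deviations -0.09, 0.05 and 0.03).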

Additional observations from a re-analysis of the deposited data

How the results depend on the processing

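With offsets of 1 or 64, quantile-normalized or median-centred arrays, dim probe sets left out, variances trended on the mean, weighted arrays or the replicate block, limma called 0 probe sets, as it did with each of the 6 mice left out in turn (range 0 to 0). The smallest limma adjusted p was 0.0631 without untreated mouse 1 and 0.0706 with the offset of 1. The replicate block changed no call, with a Plpp3 log2 change of -0.69 ± 0.11 (SE) and 0 probe sets called. The Plpp3 change ranged from -0.75 to -0.58 over the mice left out and from -0.71 to -0.60 over the other settings. The number of members lower was 6 to 8 over the mice left out, and the median of the members -0.17 to -0.13. That median was -0.12 with the mean of all probe sets of a gene, where the other probe sets enter beside the lead one. Plpp1 and Sphk1 then gave -0.07 each, against -0.18 and -0.20 by lead probe set. Sgpl1 and Sphk2 went the other way, to -0.19 and -0.15 from -0.15 and -0.13. The number of probe sets at an unadjusted p under 0.05 was 1508 to 3555 over the mice left out, the highest without untreated mouse 1, and 1055 of 22518 with the filter, where fewer were tested. S1pr1, Lpar1 and the dim probe sets are limited by their signal over background.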

Other observations

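Some pathway genes had probe sets that disagreed on the array of untreated mouse 3. A probe set of Sgpp1, which encodes an S1P phosphatase inside the cell (1450015_x_at), read 36.9 on that array and 170 to 235 on the others, while the lead probe set of the same gene read 1214 there and 1122 to 1239 elsewhere. A probe set of the G-protein gene Gnai2 (1419449_a_at) read 643 against 1644 to 1908, and the lead probe set read 5106 against 5219 to 5519. For Gna13, probe sets 1422556_at and 1460317_s_at read 327 and 299 on that array against 708 to 995 and 562 to 653, while 1422555_s_at read 1487 against 1374 to 1541 and the lead probe set (1433749_at) 1310 against 1565 to 1714. These 4 were the pathway probe sets more than 2-fold away from the other arrays' median, against 1.89% of all probe sets on that array. On each of the other arrays there were 0 such pathway probe sets. The log2 changes of these 4, with that mouse included, were 0.58, 0.47, 0.37 and 0.25 in the order given.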
